A study of Bos taurus with 4 samples.

Results

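Transcripts of mitochondrial fatty acid oxidation were followed in bovine morulae through 10 genes: CPT1A, CPT2, ACADM, ACADVL, ACADS, HADHA, HADHB, HADH, ETFA and ETFB. The members were chosen by gene symbol, and every array probe that the platform annotation pairs with one of these symbols was taken, whatever its signal. This gave 16 probes of 9 genes among the 43794 transcript probes of the array, and 1 gene, HADHA, had no annotated probe and was not analysed here. The embryos were produced in vitro from oocytes of slaughter ovaries (breed Holstein, as labelled for the second channel) and cultured in synthetic oviductal fluid. In the high glucose (HG) condition the medium held 5 mM glucose from day 0 to day 3, in the control (CTL) condition 0.2 mM, and both then stayed in control medium until day 5. Morulae were collected at 120 h after fertilization in pools of 10 embryos, and both conditions shared fatty-acid free albumin and the same serum source. Each of 4 arrays set 1 HG pool against 1 CTL pool, with HG in the red dye Cy5 on arrays 1 and 2 and in the green dye Cy3 on arrays 3 and 4.

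Mitochondrial fatty acid oxidation shortens fatty acids by repeated cycles that yield acetyl-CoA and reduced cofactors for the respiratory chain. CPT1A, the carnitine palmitoyltransferase of the outer mitochondrial membrane, commits long-chain fatty acids to import, and CPT2 on the inner membrane turns the imported acylcarnitine back into acyl-CoA. Chain-length-specific acyl-CoA dehydrogenases open each cycle, HADHA, HADHB and HADH carry out later steps, and the electron transfer flavoprotein of ETFA and ETFB takes up the electrons of the dehydrogenases. Bovine oocytes and early embryos are rich in lipid droplets, and lipid is among their energy stores.

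The comparison asks whether glucose during the first days of culture left a difference in these transcripts at the morula stage, after the return to control medium. No member probe passed the test. HADH, the 3-hydroxyacyl-CoA dehydrogenase for medium and short chains, had the smallest p-value, with HG 1.67-fold below CTL on average and below it on all 4 arrays. CPT1A was also below CTL on all 4 arrays, but its mean of -1.02 ± 1.43 (log2, SD, n = 4) rested on array 1. The trifunctional protein subunit HADHB was the only tested probe with a mean above 0, at 0.17 ± 0.58 (n = 4), and it was higher in HG on 2 arrays and lower on 2. In the values computed here that direction rested on array 3, since the mean of HADHB was -0.11 without it and -0.20 on arrays 2 and 4 alone. The authors' deposited HADHB ratio on array 1 was 0.44, against 0.06 here. Ratios are log2 of HG over CTL, so that a value of -1 is a halving, and each is given as mean ± SD over the 4 arrays unless stated otherwise.

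The median raw intensity over probes ranged from 210 to 287 for Cy3 and from 153 to 163 for Cy5. For each array and channel, 153 negative control spots set the background limit at their mean log2 signal plus 2 SD, which came to between 6.90 and 7.12. Tests were run on the probes that passed this limit in all 4 HG pools, in all 4 CTL pools or in both, which were 20207 probes and 8872 genes. Arrays 1 and 3 opposed each other over all tested probes once turned to HG over CTL (r = -0.44), arrays 2 and 4 had r = 0.22, and the other pairs lay between 0.04 and 0.13, so that values with array 1 left out or turned are given where they matter. Of 10 marker genes of the embryo at this stage 8 were tested, while SOX2 and CDH1 were not above background on enough arrays. The median ratios of the 8 were 0.11, 0.07, -1.20 and 0.00 on arrays 1 to 4. KRT8, a keratin of simple epithelia, was below 0 on all 4 arrays at -1.81 ± 0.76 (n = 4, unadjusted p = 0.00165 and adjusted p = 0.692 by limma). The pluripotency factor POU5F1 was so at -0.54 ± 0.37 (n = 4). KRT18 had -1.39 ± 1.30 (n = 4) but was above 0 on array 1, at 0.29. The others were NANOG at 0.47 ± 0.65, KLF4 at 0.38 ± 0.91, LIN28A at -0.02 ± 0.42, DPPA3 at -0.44 ± 0.84 and TFAP2C at -0.09 ± 0.91 (n = 4). The part of these embryo markers in the enzymes' ratios was not tested. The RNA is that of whole embryos, so fewer cells of a type and less RNA per cell cannot be told apart. No label says that the pools came from separate fertilizations, and p-values measure the spread between these pools only.

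By limma with Benjamini-Hochberg adjustment over all tested probes, 0 of the 12 tested member probes passed an adjusted p of 0.05, against 0% of all 20207 tested probes (0 probes), and the smallest adjusted p of any probe was 0.692. At an unadjusted p under 0.05, 1 member probe (HADH, 8.33% of 12) stood against 1426 of all tested probes, or 7.06%, so the members' share was near the background. Lower in HG on all 4 arrays were 3 of the 12 probes (CPT1A, HADH and 1 of 4 ETFB probes), against 7.22% of all tested probes. The CPT1A probe was above background in CTL on 4 arrays and in HG on 3. It was therefore tested only through CTL, the condition where it is higher, and is absent from the stricter filter below. Higher on all 4 were 0 of the 12, against 7.45% of all tested probes. The size of the background depends on the filter. Among the 16630 probes above background in both conditions on all arrays these shares were 7.11% for the unadjusted p, 7.75% for lower and 7.22% for higher, and without any filter, over 43794 probes, they were 4.89%, 4.96% and 5.09%. With 4 arrays the smallest two-sided exact p by sign changes is 0.125, so an exact test of single probes could not reach the threshold.

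**Figure D1:**
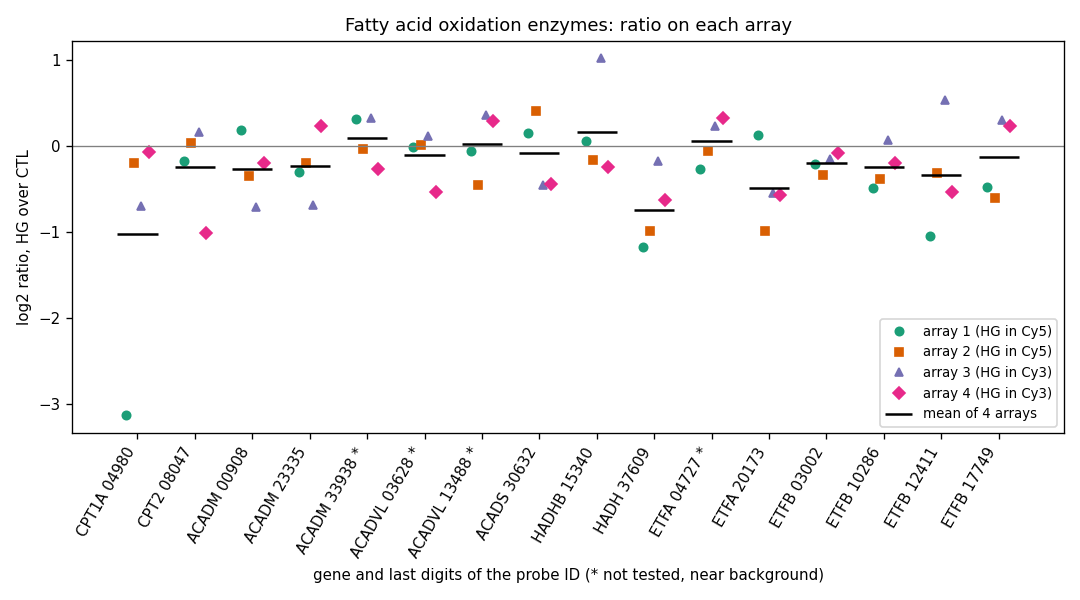
Log2 ratio of HG over CTL (vertical axis) for the 16 probes (horizontal axis, gene and last digits of the probe ID), with 1 point per array and a bar at the mean of the 4 arrays. The CPT1A point of array 1 lies at -3.13, and the points of most other probes lie on both sides of 0.

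The plot of ratios on each array shows how far the probes of single genes vary. Of the 12 tested probes 11 had a mean below 0, with a median of -0.24, beside 49.7% and 0.00 over all tested probes. The members' medians were -0.25, -0.33, -0.16 and -0.22 on arrays 1 to 4. Over all 16 probes, tested or not, 12 means were below 0 and the median was -0.22. Without the CPT1A probe the count was 10 of 11 with a median of -0.24, and on arrays 2 and 4 alone it was 11 of 12 with a median of -0.25. The median SD of a single tested member probe over the arrays was 0.45. These counts describe the probes and carry no test, and the CPT1A probe and 1 ACADM probe were tested only because CTL was above background on all 4 arrays.

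The carnitine step was covered by 1 probe for each enzyme. The CPT1A probe (EMBV3_04980) had log2 ratios of -3.13, -0.19, -0.70 and -0.07 on arrays 1 to 4. Its log2 signals were 9.99, 6.95, 7.01 and 7.34 in HG and 13.13, 7.14, 7.71 and 7.40 in CTL. Array 1 was far above the other 3 in both pools, and on arrays 2 to 4 the signal lay close to the background limit, with HG above it on 3 of the 4 arrays. The mean of -1.02 ± 1.43 (n = 4) had an adjusted p of 0.807 by limma with a 95% interval of -2.40 to 0.36, and without array 1 it was -0.32 ± 0.34 (n = 3). With the sign of array 1 turned the mean was 0.54.

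The spot behind the CPT1A value on array 1 was uneven. In Cy3, which held CTL, the mean of its pixels was 9258 and the median 580, a ratio of 15.96 that 5 of 43794 probe spots of that array and channel reached. In Cy5, which held HG, the mean was 1035 and the median 259, a ratio of 4 that 11 probe spots reached. The other 126 member spots and channels had ratios of mean to median between 0.76 and 1.36, and the submitters' file did not mark the spot as ignored. From median pixels the CPT1A ratios were -0.64, -0.01, -0.51 and -0.50 on arrays 1 to 4, with a mean of -0.41 ± 0.28 (n = 4). The authors' deposited log2 ratios of this probe, turned to HG over CTL, were -2.93, -0.18, -0.59 and -0.05, so the value of array 1 is present there too.

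**Figure D2:**
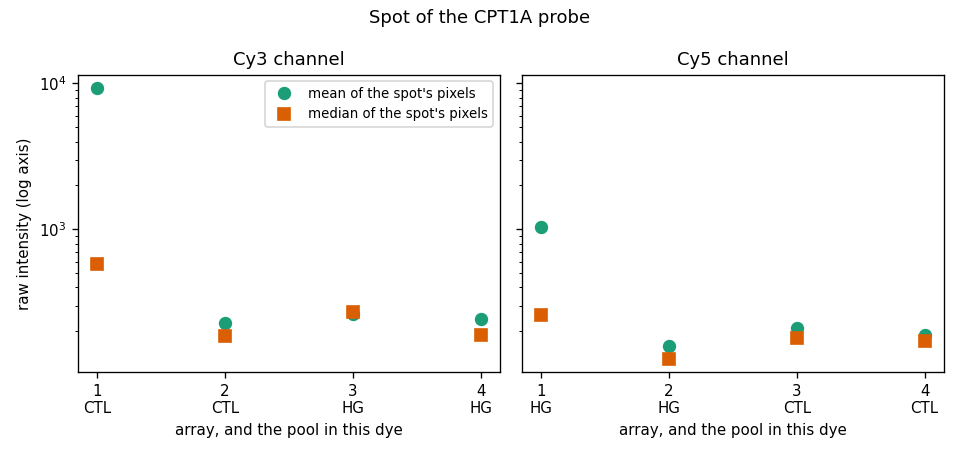
Raw intensity (log axis) of the CPT1A probe on each array, as the mean and the median of the spot's pixels, in the Cy3 channel (left) and the Cy5 channel (right), with the pool in that dye under each array. Mean and median part on array 1, at 9258 and 580 in Cy3, and lie close together on the others.

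The plot of the CPT1A spot sets the 2 summaries of each spot side by side. CPT2 (EMBV3_08047) had ratios of -0.17, 0.04, 0.16 and -1.01 on arrays 1 to 4. Its mean of -0.24 ± 0.53 (n = 4, adjusted p = 0.949 by limma, 95% interval -0.83 to 0.35) came mostly from array 4, where HG had a log2 signal of 9.02 and CTL one of 10.03. On the other 3 arrays the pools differed by at most 0.17.

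The acyl-CoA dehydrogenases differ in the chain length they take, with ACADVL for very long, ACADM for medium and ACADS for short chains. ACADM had 3 probes. The brightest (EMBV3_23335) had ratios of -0.30, -0.19, -0.68 and 0.23, a mean of -0.23 ± 0.38 (n = 4, adjusted p = 0.921 by limma). Its log2 signals were 10.38, 10.64, 9.76 and 10.52 in HG and 10.68, 10.84, 10.44 and 10.29 in CTL. HG was thus lower on arrays 1 to 3 and higher on array 4. The authors' deposited ratio of this probe on array 1 was 0.04, so the sign there depended on the processing. A dimmer ACADM probe (EMBV3_00908) had ratios of 0.19, -0.35, -0.71 and -0.20, with a mean of -0.27 ± 0.37 (n = 4, adjusted p = 0.888 by limma). It was tested only through CTL. On array 3 its HG signal of 6.90 was under the limit of 6.96. Both probes were lowest on array 3, and they differed in sign on arrays 1 and 4. The ACADM probe EMBV3_33938 was not above background in any pool, with ratios of 0.32, -0.03, 0.33 and -0.27.

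ACADVL could not be tested. Its probe EMBV3_03628 was above background in HG on 2 arrays and in CTL on 1, with ratios of -0.01, 0.01, 0.12 and -0.53. Its probe EMBV3_13488 was above background in HG on 1 array and in CTL on 0, with ratios of -0.06, -0.45, 0.36 and 0.29. A difference in ACADVL was therefore not detectable with these probes, which is no measure of its absence. ACADS (EMBV3_30632) was tested, with log2 signals between 7.19 and 7.82 and ratios of 0.15 and 0.41 where HG was in Cy5 and -0.45 and -0.44 where HG was in Cy3. The sign of the ACADS ratio thus followed the dye, the mean over all arrays was -0.08 ± 0.43 (n = 4, adjusted p = 0.987 by limma), and the dye term had an adjusted p of 0.597 by limma.

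The second dehydrogenation and the thiolysis of the cycle were covered by HADH and HADHB. HADHB, the thiolase subunit of the trifunctional protein, had 1 probe (EMBV3_15340) with log2 signals of 12.22, 12.14, 13.45 and 12.37 in HG and 12.16, 12.30, 12.43 and 12.61 in CTL. The HG pool of array 3 was higher than all other pools, and the remaining 7 lay within 12.14 and 12.61. Signals were not scaled between arrays, so such levels are a description only. The ratios were 0.06, -0.16, 1.02 and -0.24, with a mean of 0.17 ± 0.58 (n = 4, adjusted p = 0.981 by limma, 95% interval -0.46 to 0.80). The authors' deposited log2 ratios of HADHB were 0.44, -0.10, 0.94 and -0.27, with a mean of 0.25. Their mean without array 3 was not computed.

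HADH (EMBV3_37609) had log2 signals of 8.52, 8.39, 9.16 and 9.16 in HG and 9.69, 9.37, 9.33 and 9.79 in CTL. HG was below CTL on each array, and the gap was narrow on array 3. The ratios were -1.17, -0.98, -0.17 and -0.63, with a mean of -0.74 ± 0.44 (n = 4), an unadjusted p of 0.0142 and an adjusted p of 0.692 by limma, and a 95% interval of -1.26 to -0.22 that is not adjusted for the number of probes. The exact two-sided p was 0.125, the smallest possible with 4 arrays. Among all tested probes, 8.88%, 2.87%, 36.3% and 9.10% had a ratio as low or lower on arrays 1 to 4. The mean was -1.07 over the arrays with HG in Cy5 and -0.40 over those with HG in Cy3. The authors' deposited log2 ratios gave -0.93, -0.93, -0.26 and -0.58 for HADH. Over 19 processing settings the mean stayed below 0, between -0.92 and -0.15, and the value of -0.15 came with the sign of array 1 turned. These settings re-use the same arrays, and some of them, such as the filters and the dye term, cannot change the mean.

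**Figure D3:**
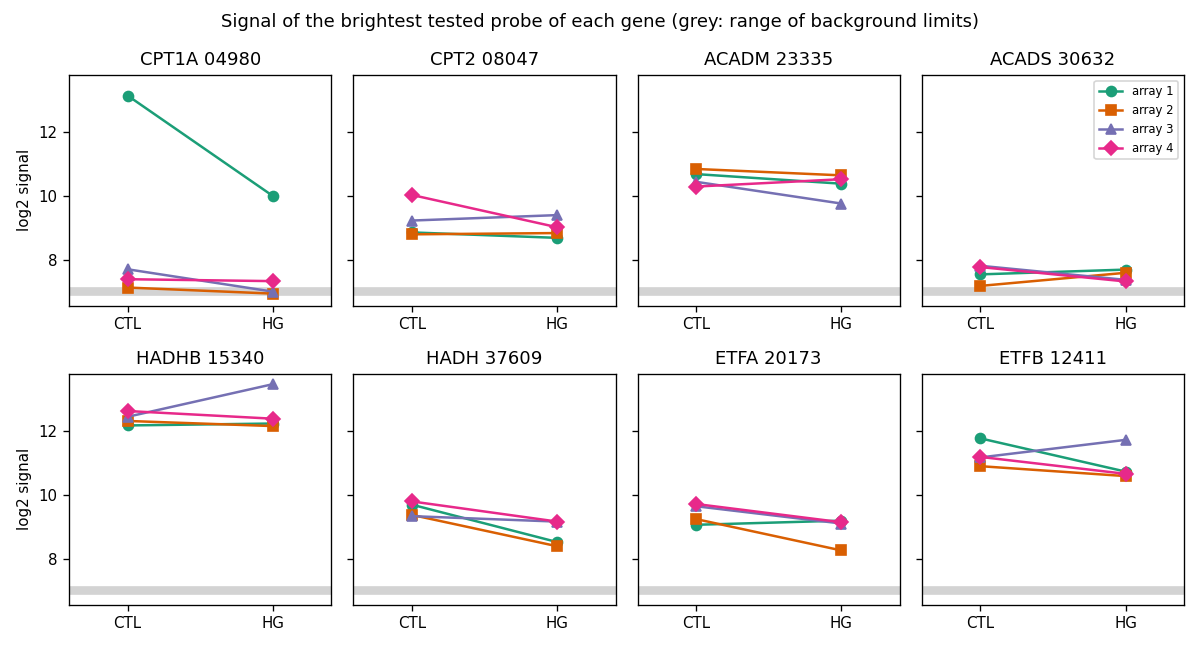
Log2 signal (vertical axis) of the brightest tested probe of each of 8 genes in the CTL and HG pool of each array, joined by a line per array, over the grey range of background limits. The HADH lines all run downward from CTL to HG, and the CPT1A line of array 1 starts at 13.13 while its other arrays lie near the background.

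The plot of signals shows each pool of the 8 tested genes. Levels are to be read within a gene and array only, since probes differ in their response and signals were not scaled between arrays. The electron transfer flavoprotein was covered by 2 probes of ETFA and 4 of ETFB. ETFA (EMBV3_20173) had log2 signals of 9.19, 8.26, 9.10 and 9.14 in HG and 9.06, 9.24, 9.64 and 9.71 in CTL. HG was lower on arrays 2 to 4 and slightly higher on array 1, with ratios of 0.13, -0.98, -0.54 and -0.57. The mean was -0.49 ± 0.46 (n = 4, adjusted p = 0.728 by limma, 95% interval -1.03 to 0.05). It was below 0 in 19 of 19 processing settings. These re-use the same arrays, and some of them, such as the filters and the dye term, cannot change the mean. The other ETFA probe (EMBV3_04727) was above background on 2 arrays in each condition and was not tested, with ratios of -0.26, -0.06, 0.23 and 0.33.

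The 4 ETFB probes all had means below 0 and differed in how evenly the arrays shared it. EMBV3_03002 had ratios of -0.21, -0.34, -0.15 and -0.08, a mean of -0.20 ± 0.11 (n = 4, adjusted p = 0.884 by limma), the smallest SD of any member probe. EMBV3_12411, the brightest, had ratios of -1.04, -0.31, 0.54 and -0.53, a mean of -0.34 ± 0.66 (n = 4, adjusted p = 0.925 by limma). On array 3 these 2 probes of 1 gene thus differed in sign, and without array 1 the mean of the brighter was -0.10 ± 0.57 (n = 3). EMBV3_10286 had ratios of -0.48, -0.38, 0.07 and -0.20. EMBV3_17749 had ratios of -0.47 and -0.60 with HG in Cy5 and 0.30 and 0.24 with HG in Cy3, so its sign followed the dye (dye term adjusted p = 0.597 by limma).

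Genes around these enzymes were counted in 5 lists, with each gene represented by its tested probe of highest signal. Of 57 listed genes 53 had a probe and 34 were tested, and 0 passed the adjusted threshold by limma. Below 0 were 21 of the 34 means (61.8%) with a median of -0.16, beside 53.9% and -0.02 over all 8872 genes. This count depended on the arrays. It was 18 of 34 without array 1, 16 with the sign of array 1 turned and 24 without array 3. The 53.9% over all genes is also the background for the counts of the single lists below. Lower in HG on all 4 arrays were 5 of the 34, against 8.09% of all genes, and higher on all 4 were 3, against 6.04% of all genes. Among the 8 tested enzymes themselves, counted in the same way, 2 were lower on all 4 arrays, 7 had a mean below 0 and the median was -0.29. The 2 were HADH and CPT1A, and CPT1A was tested only because CTL was above background on all 4 arrays.

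Fatty acid activation and the carnitine shuttle had 5 of 9 tested genes below 0 and a median of -0.06. CRAT, the carnitine acetyltransferase, was above CTL on all 4 arrays, at 0.63, 0.99, 1.36 and 0.07, with a mean of 0.76 ± 0.55 (n = 4, unadjusted p = 0.0223 and adjusted p = 0.692 by limma). The acyl-CoA synthetases differed in direction, with ACSL1 at 0.42 ± 0.38 and ACSL6 at -0.68 ± 0.52 (n = 4), each the same way on all 4 arrays. SLC25A20, the carnitine-acylcarnitine carrier between CPT1A and CPT2, had -0.37 ± 0.35 (n = 4) and was below 0 on 3 arrays. CPT1B, the muscle form of the outer membrane transferase, was not above background in any pool.

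The other spiral and auxiliary enzymes had 7 of 9 tested genes below 0 and a median of -0.30. ETFDH, which passes the electrons of ETFA and ETFB on to ubiquinone, had ratios of -0.47, -0.43, -0.21 and -0.23, with a mean of -0.34 ± 0.13 (n = 4, adjusted p = 0.708 by limma). MMUT and PCCB, which process propionyl-CoA from odd chains, had -0.41 ± 0.29 and -0.33 ± 0.34 (n = 4) and were below 0 on all 4 arrays, though PCCB was at -0.03 on array 3. ECI1, an isomerase for unsaturated chains, went the other way on all 4 arrays, with 0.42 ± 0.20 (n = 4). The thiolases ACAA2 and ACAT1 had -0.17 ± 0.43 and -0.30 ± 0.37 (n = 4), each below 0 on 3 arrays, and only 1 of the 3 tested ACAA2 probes had a mean below 0. ECHS1, the short-chain enoyl-CoA hydratase, had -0.01 ± 0.71 (n = 4), with 1.03 on array 3 and values of -0.48 to -0.18 on the others. DECR1, the dienoyl-CoA reductase, was not tested.

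The other mitochondrial acyl-CoA dehydrogenases had 2 of 5 tested genes below 0 and a median of 0.04. GCDH, the glutaryl-CoA dehydrogenase, was below 0 on all 4 arrays with a mean of -0.31 ± 0.35 (n = 4). Peroxisomal oxidation had 4 of 7 genes below 0 with a median of -0.17, and the regulators 3 of 4 with a median of -0.19. On arrays 1 to 4 the medians were -0.11, -0.28, 0.25 and -0.14 for peroxisomal oxidation. For the regulators they were -0.62, 0.23, 0.15 and 0.05, so below 0 on array 1 only. PPARA, a nuclear receptor that activates genes of fatty acid oxidation, was not above background in any pool, and its coactivator PPARGC1A was not tested. For comparison, fatty acid synthesis had 6 of 6 tested genes below 0 and the citrate cycle 13 of 15, beside 53.9% of all genes. Both had a median of -0.50, but the arrays did not share it evenly. The medians on arrays 1 to 4 were -0.85, -0.68, -0.05 and -0.79 for synthesis and 0.03, -0.34, -0.48 and -0.77 for the citrate cycle. The differences between lists were not tested.

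**Figure D4:**
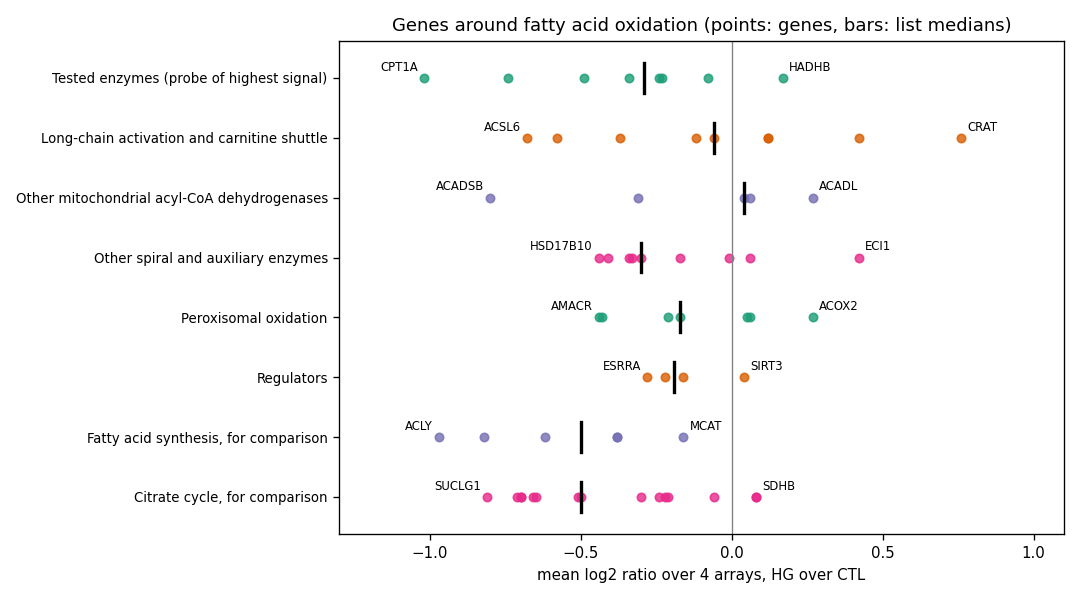
Mean log2 ratio of HG over CTL over 4 arrays (horizontal axis) for the tested genes of each list (rows), with 1 point per gene, a bar at the list's median and the names of the lowest and highest gene. The medians are -0.29 for the tested enzymes, -0.06 for activation and the carnitine shuttle and -0.50 for the 2 comparison lists.

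The plot of pathway lists shows that genes of every oxidation list lie on both sides of 0. The median of markers of cumulus, granulosa and stromal cells moved with the arrays. Of 20 such genes 15 were tested, and their median ratios were -2.02, 0.08, 2.13 and -0.38 on arrays 1 to 4. Their summed signal on the log2 scale ranged from 12.70 to 17.48 in HG and from 13.01 to 15.91 in CTL, and HAS2, PTGS2, CYP11A1, FSHR and VCAN were not above background on enough arrays to be tested. Most of the 15 markers were below 0 on array 1 and above 0 on array 3. The exceptions were CYP19A1, below 0 on all 4 arrays, and TNFAIP6 and COL1A1, above 0 on array 1 at 0.60 and 0.09. CYP19A1 was above background in HG on 3 arrays and in CTL on 4, and TNFAIP6 in HG on 4 and in CTL on 3. COL1A1 had log2 signals of 7.18 to 7.60, close to the background limit. FST, COL3A1 and THBS1, which followed the pattern, also passed on all 4 arrays in 1 condition only. CPT1A had the markers' sign on array 1, at -3.13, and the opposite sign on array 3, at -0.70. HADHB had their sign on array 3, at 1.02, and not on array 1, at 0.06. The ETFB probe EMBV3_12411 had it on both, at -1.04 and 0.54. The ETFA probe EMBV3_20173 had the opposite sign on both, at 0.13 and -0.54. The 2 tested ACADM probes ran against the markers on array 3, at -0.71 (EMBV3_00908, with HG under the background limit there) and -0.68. HADH was below 0 on arrays 1 and 4, as the markers were, and also on arrays 2 and 3, where the marker medians were above 0. Their part in the enzymes' ratios was not tested. On arrays 2 and 4 alone, where the marker medians were 0.08 and -0.38, the mean of HADH was -0.80 and that of CPT1A -0.13.

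**Figure D5:**
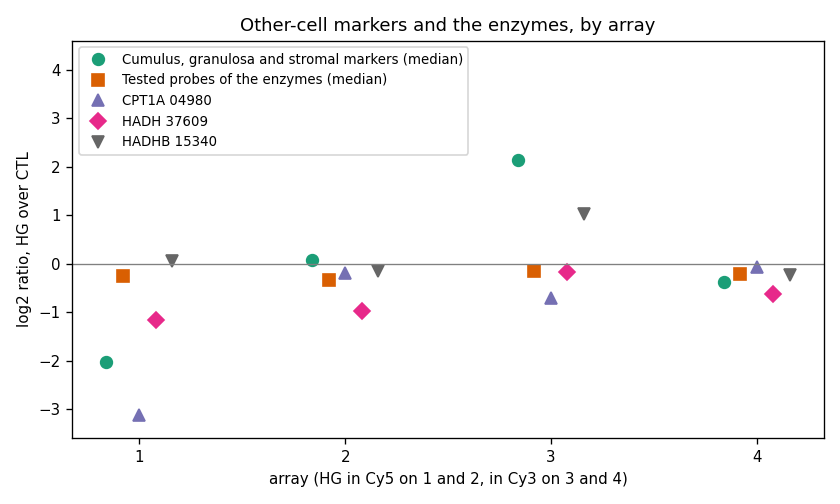
Log2 ratio of HG over CTL (vertical axis) on each array (horizontal axis) for the median of 15 cumulus, granulosa and stromal markers, the median of the 12 tested enzyme probes, and the CPT1A, HADH and HADHB probes. The marker median goes from -2.02 on array 1 to 2.13 on array 3, while the enzyme median stays between -0.33 and -0.16.

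The plot of markers and enzymes by array sets these values side by side. The authors' deposited log2 ratios were compared with the values computed from the scanner intensities for all 16 probes. Of 64 values 63 had the same sign, 50 lay within 0.1 of each other, and the largest difference was 0.39. The value that changed sign was that of ACADM EMBV3_23335 on array 1.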

How the data were processed

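The scanner files held raw intensity values of each spot, as the mean and median of its pixels with local background, uncorrected per the file headers. The authors' deposited table held log2 ratios of Cy5 over Cy3, and per the submitters' processing notes limma was used, with no version given. Against the scanner values these ratios had correlations of 0.976 to 0.993, slopes of 0.911 to 0.948 and column medians of 0.02, 0.00, 0.00 and -0.01, so their direction was Cy5 over Cy3 throughout, and their background correction stays unknown. RNA was extracted with PicoPure, amplified by T7 transcription and dye-labelled on guanine, per the labels' protocols.

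Mean intensities were corrected with normexp (median local background, offset 50) and loess in limma 3.58.1 under R 4.3.3, with control spots at weight 0 and ignored spots missing. Median local background was chosen after the data were seen, being closer to the deposited ratios over all probes than mean background. Ratios of arrays 3 and 4 were turned by the labelled dyes, so that all read HG over CTL. They were fitted against 0 with lmFit and eBayes, with a threshold of 0.05. The pipeline was tested on simulated data, with planted changes larger than any member's mean, on bright probes and with independent noise on each array. Smaller changes, dim probes and arrays that oppose each other were not covered by it. The number of tested probes depends on the background filter, so the shares of all probes are given under other filters too. Platform symbols named 21790 probes and left 22004 unnamed here. All member probes are reported. Of the genes in the oxidation lists, the text names those with the same sign on all 4 arrays plus a fixed set. For the embryo markers every tested gene is given. Members, lists and rules were chosen with earlier results of these data known. The number of arrays, 4, limits the precision. Alternatives covered background, pixel summary, normalization, filter, dye, the deposited ratios and arrays left out.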

Additional observations from a re-analysis of the deposited data

Results flagged for a closer look

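Outlying arrays were looked for in 28 sets of 4 values, the 16 member probes and the named pathway genes. The GCDH ratio of array 4, -0.83, stood apart from the -0.22, -0.10 and -0.11 of the other arrays. Chance gives about 1 in 20 such sets, and 1 of 28 did so here. The sets are not independent, since some probes share a gene and some pathway genes were picked for having the same sign on all 4 arrays. CPT1A was not flagged, although its value of -3.13 on array 1 came from an uneven spot, so a set not flagged is not thereby cleared.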

How the results depend on the processing

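No probe passed the adjusted threshold by limma under any of 19 settings, and the smallest adjusted p of a member probe ranged from 0.382 to 1. The number of tested member probes with a mean below 0 was 11 of 12. It was 8 with the sign of array 1 turned and 9 with the sign of array 3 turned or without replicate 4. With median pixel intensity, with mean local background or without replicate 2 it was 10. Among probes above background in both conditions on all arrays it was 9 of 10, and with no filter 12 of 16. The median of these probes, -0.24, was -0.09 with the sign of array 1 turned. With no filter on dim probes, 32 of 53 pathway genes had a mean below 0, in place of 21 of 34. Of the same 34, it was 18 without replicate 1 and 16 with the sign of array 1 turned. Without replicate 3 or with median centring it was 24. The number of probes with an unadjusted p under 0.05, 1426, was 2142 of 43794 with no filter, and it was 751 without replicate 2 and 764 without replicate 4. The cause was not tested. CPT1A ranged from -1.34 to 0.54 and HADH from -0.92 to -0.15. Mean local background, added after seeing the data, gave -0.87 and -0.66 for them. Dim signal limits CPT1A, ACADVL, ACADS, PPARA and some probes of ACADM, ETFA and ETFB (EMBV3_00908, EMBV3_33938, EMBV3_04727 and EMBV3_17749). These lay near or under the background limit. The fit of HG over CTL ratios is itself paired by array, so no fit with a further block was made.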
